A study of Rattus norvegicus with 112 samples.

Results

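Primary cultures of rat cortical neurons were kept in NMDA for 360 min and compared with control cultures that received none. The comparison holds 6 of the 112 arrays of the series: 3 labelled NMDA360 and 3 labelled CO, taken because the labels place them in the same run and give them the numbers 2, 3 and 4. The NMDA360 cultures stood in 1 mM NMDA for 360 min and were taken at the end of the exposure, and the control cultures carry a time of 0 min. The title of NMDA360 replicate 4 gives a time that differs from 360 in its last digit, and it was placed by its description, which reads NMDA360. The same run holds 3 arrays each for 10, 30, 60 and 180 min in 1 mM NMDA, so that 18 arrays in 6 groups were fitted together. Another run of 16 arrays, with pulses of 1 mM NMDA washed off for 24 h and their controls, is read beside these at the end. RNA of each culture was read on an Affymetrix rat array of 1322 probe sets, sets of short oligonucleotides aimed at a transcript, and the values are intensities on a linear scale. Strain, age, days in culture and what the numbers 2, 3 and 4 stand for are not given in the sources used here. They are called culture numbers below, and the p-values measure the spread between these arrays.

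NMDA is a synthetic amino acid that opens one class of glutamate receptor, a channel that lets calcium into the neuron and is named after it. Calcium entry through these channels reaches the nucleus through kinases and phosphorylated transcription factors such as CREB, and it switches on immediate early genes, which need no new protein for their transcription. Many of these encode transcription factors themselves, and later waves include secreted effectors such as the neurotrophin BDNF. Long or strong activation of the same receptors injures neurons, and the change of mRNA during a continuous exposure is the question this comparison addresses.

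The 6 arrays differed in quality, and NMDA360 replicate 3 stood apart. The ratio of the 3' to the 5' control probe set of GAPDH, which rises when RNA is degraded or poorly copied, was 1.64, 2.25 and 1.58 on NMDA360 arrays 2, 3 and 4, against 1.29, 1.75 and 1.45 on the control arrays. The highest ratio of the run was 2.41, on replicate 2 of the 10 min group. The same ratio for actin was 1.83 on NMDA360 replicate 3, the highest of the run, against 0.789 to 1.67 on the other 17 arrays. The median intensity of NMDA360 replicate 3 was 1114, against 561 to 808 on the other 17 arrays, and its mean correlation with the other arrays was 0.797, against 0.853 to 0.925. Counts of calls and named genes are therefore given with and without this array. With it left out, the group holds replicates 2 and 4 alone.

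**Figure D1:**
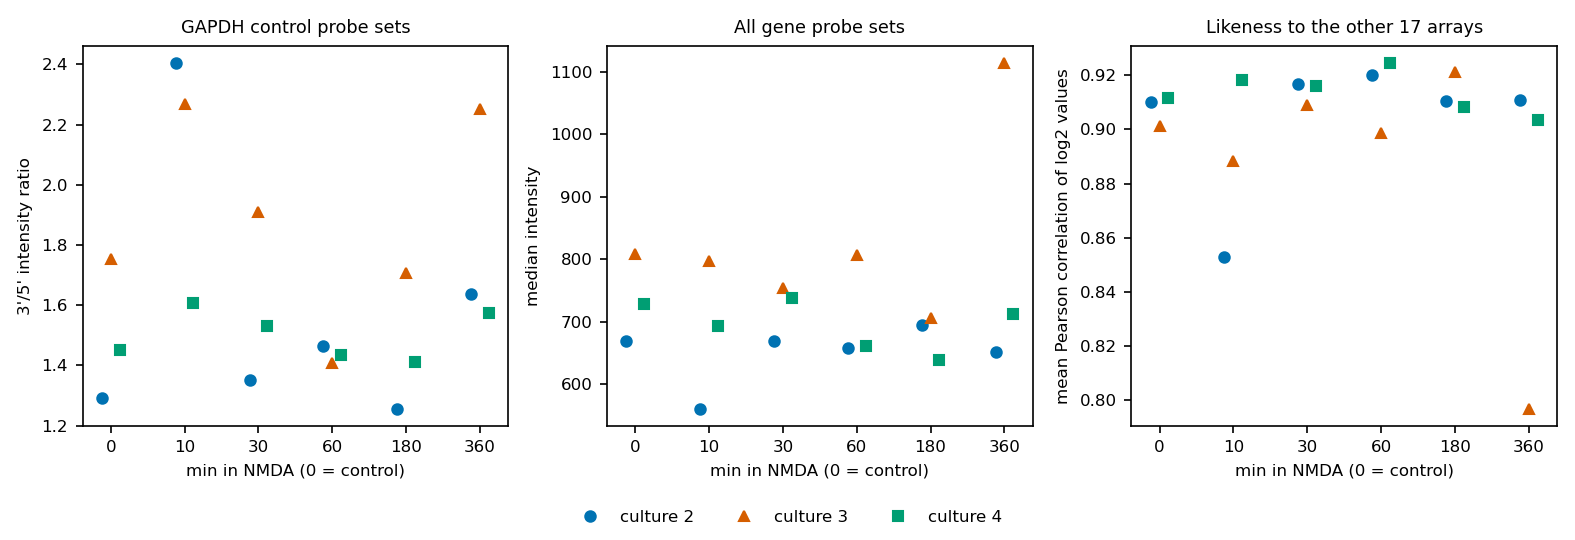
Quality of the 18 arrays by min in NMDA (0 is control), with 1 symbol per culture number. The left panel plots the GAPDH 3'/5' intensity ratio, the middle panel the median intensity and the right panel the mean correlation with the other 17 arrays. The 360 min array of culture 3 has a median intensity of 1114 and a mean correlation of 0.797.

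After 360 min in NMDA the genes called higher were immediate early and activity-regulated ones, and few probe sets were called in all. Fos, Nr4a1, Bdnf and Vgf rose at 9 probe sets, and Grm7 fell at 1. By limma with the culture number as a block, 10 of 884 tested probe sets passed an adjusted p of 0.05 (1.13% of those tested), of which 9 were higher (1.02%) and 1 was lower (0.113%), with 120 at an unadjusted p under 0.05. Without NMDA360 replicate 3, 18 passed (2.04%), 15 higher (1.7%) and 3 lower (0.339%). All 10 probe sets called with every array were among these 18. The added ones read Fosl2, Junb, Crem, Nr4a3, Camkk1, Grip2 and AF030088UTR#1_at, a probe set without a gene name in the platform annotation. Without the block and with every array, limma called 0 probe sets, with 73 at an unadjusted p under 0.05, and without both the block and replicate 3 it called 16 (1.81%), all higher. The count with every array also rested on the controls: it was 0 without control replicate 4 (113 at an unadjusted p under 0.05) and 6 without control replicate 2, and the count of 18 was 5 without NMDA360 replicate 4.

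Among the immediate early transcription factors, Fos and Nr4a1 rose. The list of these factors had 10 tested genes, each standing for its brightest probe set, of which 2 were called higher with all arrays and 6 without replicate 3. The median log2 change of the list was 1.40 with all arrays and 2.10 without replicate 3, beside 0.01 and -0.05 over all probe sets tested.

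Fos, which encodes a subunit of the AP-1 transcription factor, had an intensity of 9618, 1893 and 12108 on NMDA360 arrays 2, 3 and 4 at probe set X06769cds_at, against 432, 890 and 367 on the control arrays. All NMDA360 values lay above all control values, and culture 3 had both the lowest treated and the highest control value. It rose by 3.33 on the log2 scale (SE 0.52, adjusted p = 0.00364), 3.84 without replicate 3 (adjusted p = 0.00103), and the adjusted p was 0.0584 without the block. Over 20 alternatives the adjusted p of this probe set ran between 2.54e-06 and 0.0584. The other Fos probe sets, X03347cds_g_at and X06769cds_g_at, rose by 2.88 and 2.23 with adjusted p = 0.00858 and 0.00566, so that 3 of 3 Fos probe sets passed.

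Nr4a1, which encodes an orphan nuclear receptor, is among the genes that answer calcium entry fastest. Its probe set U17254_g_at had an intensity of 14593, 3661 and 17437 on NMDA360 arrays 2, 3 and 4, against 1848, 971 and 1236 on the control arrays. The groups did not overlap, and the rise was present in each culture number, smallest in culture 3. On the log2 scale it rose by 2.83 (SE 0.43, adjusted p = 0.00364), or 3.16 without replicate 3 (adjusted p = 0.00145). The adjusted p was 0.0914 without the block, the highest over 20 alternatives, of which the lowest was 2.05e-05. The other Nr4a1 probe set, U17254_at, rose by 2.19 (adjusted p = 0.0110, and 0.231 without the block).

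Fosl2, Junb, Nr4a3 and Crem passed the threshold only in the fit without replicate 3, and culture 3 was the number with the smallest increase or with a decrease in each of them. Fosl2, a further AP-1 subunit, had an intensity of 6343, 695 and 8371 on NMDA360 arrays 2, 3 and 4, against 641, 468 and 1122 on the control arrays. Its log2 change was 2.15 with all arrays (adjusted p = 0.0712) and 3.08 without replicate 3 (SE 0.37, adjusted p = 0.000323). NMDA360 replicate 3 lay among the controls, and its pair showed a small difference of 0.50. Junb, another AP-1 subunit, had 4426, 320 and 7300 on NMDA360 arrays and 680, 819 and 499 on control arrays. Cultures 2 and 4 were higher in NMDA and culture 3 was lower, by a log2 difference of -1.16. Its log2 change was 1.69 with all arrays (adjusted p = 0.235) and 2.66 without replicate 3 (SE 0.49, adjusted p = 0.00527). Over 17 alternatives without replicate 3 the adjusted p of Fosl2 was 0.000150 to 0.0122 and that of Junb 0.000895 to 0.203.

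Crem, whose inducible product ICER represses CREB-driven genes, had an intensity of 4236, 925 and 5539 on NMDA360 arrays 2, 3 and 4, against 510, 1170 and 396 on the control arrays. Its log2 change was 2.03 with all arrays (adjusted p = 0.174) and 2.89 without replicate 3 (SE 0.61, adjusted p = 0.0163, with 0.000370 to 0.290 over 17 alternatives). Nr4a3, a relative of Nr4a1, had 13885, 5840 and 17276 on NMDA360 arrays at rc_AI176710_at, against 4139, 6806 and 4824 on control arrays. In both genes cultures 2 and 4 lay above all controls and culture 3 lay among them. Nr4a3 had a log2 change of 1.11 with all arrays (adjusted p = 0.135) and 1.68 without replicate 3 (SE 0.20, adjusted p = 0.000323), and its other tested probe set X86003_at had 2.70 without replicate 3 (adjusted p = 0.000731).

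The other tested factors did not pass in either fit. Egr1, a zinc finger factor, had a log2 change of 0.67 at its brightest probe set (adjusted p = 0.454) and of 1.08 without replicate 3 (adjusted p = 0.299), and its 4 probe sets ran between 0.67 and 1.16. With all arrays Jun had 0.99 (adjusted p = 0.487), Jund 0.50 (adjusted p = 0.565) and Creb1, which encodes CREB, -0.38 (adjusted p = 0.654). Without replicate 3 they had 1.54, 0.42 and -0.42 (adjusted p = 0.489, 0.848 and 0.821). The 18 probe sets called without replicate 3 were picked in a fit whose NMDA360 arrays were 2 and 4 alone. A smaller difference in culture 3 is therefore built into that choice in part. Over these 18, the difference within culture 3 had the same sign as the fitted change in 13. Its size over that of the fitted log2 change had a median of 0.288. The GAPDH ratio and the median intensity of that array moved with these values, and their part was not tested beyond leaving the array out and fitting the ratio as a covariate, which gave 9 calls in place of 10.

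**Figure D2:**
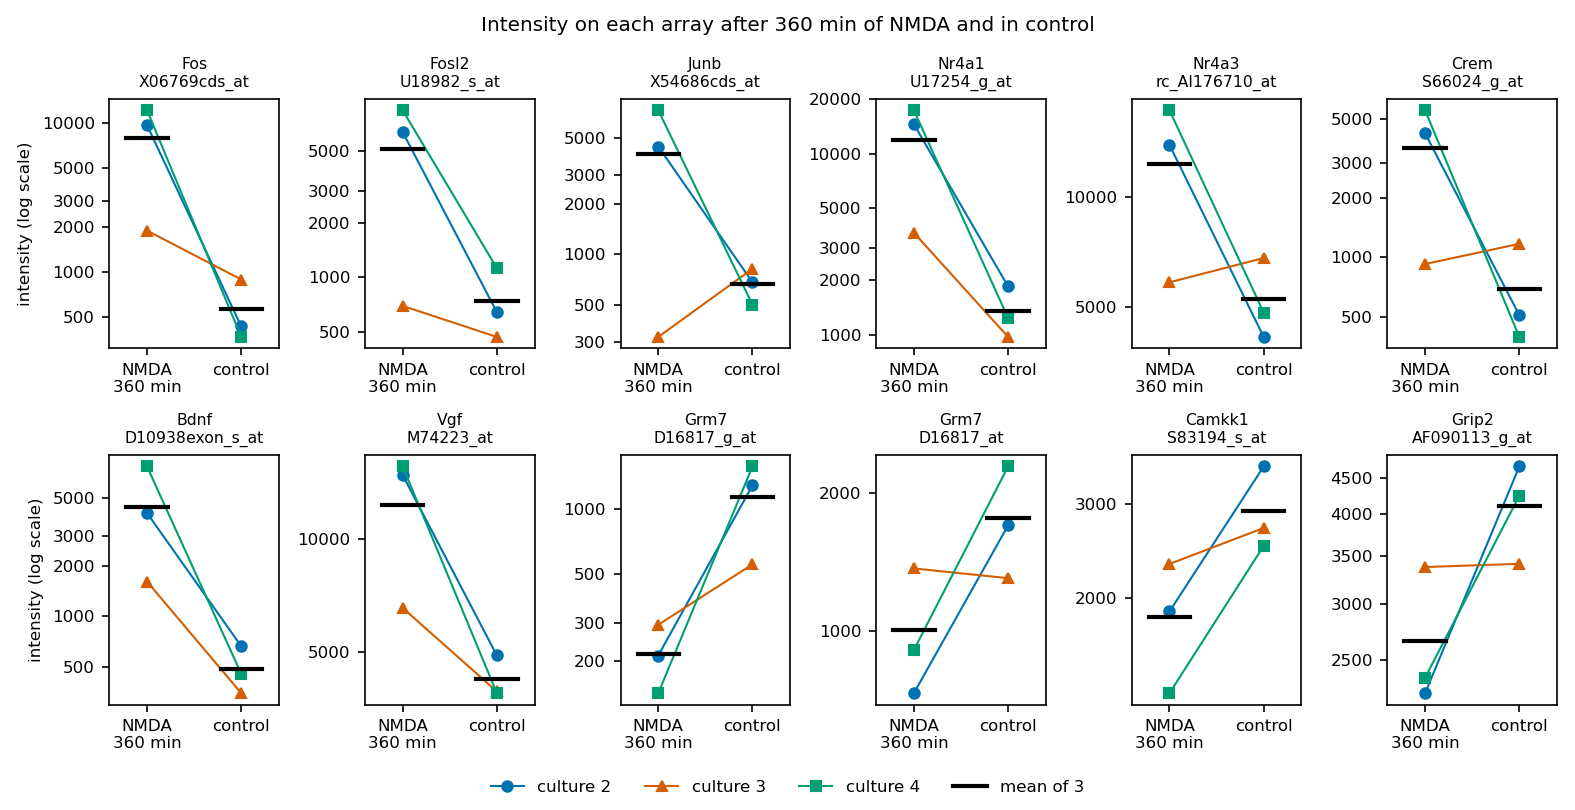
Intensity (log scale) of 12 probe sets on the NMDA360 arrays (left of each panel) and the control arrays (right), with 1 line per culture number and a black bar for the mean of 3. Cultures 2 and 4 run steeply in the upper row, for example 9618 and 12108 against 432 and 367 for Fos, while culture 3 runs less steeply for Fos, Fosl2 and Nr4a1 and the other way for Junb, Nr4a3 and Crem.

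The promoters of the called genes were read because several of the risen genes are textbook targets of CREB, which binds the cyclic AMP response element (CRE) TGACGTCA or its core TGACG. RefSeq's promoter table (build GRCr8) held 9 of the 11 genes called in either fit, with 16 annotated starts. Fos and Nr4a3 were not in it, so their promoters were not searched. The window was the 250 bases before each start, and both strands were searched, so that a full CRE also counts as 2 overlapping cores. The full CRE lay before 3 of the 16 starts, those of Vgf and of 2 Crem transcripts, and before 1.59% of the 33469 starts in the table. The core lay before 8 starts of 6 genes, and before 18.2% of all starts. TGANTCA, a loose form of the AP-1 site that takes any base at its centre, lay before 1 of the 16 starts and before 6.34% of all. That start was of Bdnf, where the match reads TGAATCA. A match describes these letters and shows no binding. The windows of Nr4a1 (chr7:134259888-134260137, plus strand), Crem (chr17:58985240-58985489, plus strand, the start furthest along the gene), Bdnf (chr3:116637608-116637857, plus strand, the only Bdnf start with a core) and Vgf (chr12:25277021-25277270, minus strand) are shown 5′ to 3′ with the CRE or its core in capitals. These are risen genes whose windows hold a match, and Junb, whose window holds a core as well, is not shown.
Nr4a1: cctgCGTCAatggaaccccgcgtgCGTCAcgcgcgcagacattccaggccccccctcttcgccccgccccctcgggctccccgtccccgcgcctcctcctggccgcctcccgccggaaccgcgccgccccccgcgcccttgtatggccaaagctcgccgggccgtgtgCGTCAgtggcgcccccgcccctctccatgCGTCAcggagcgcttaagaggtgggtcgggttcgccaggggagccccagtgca
Crem: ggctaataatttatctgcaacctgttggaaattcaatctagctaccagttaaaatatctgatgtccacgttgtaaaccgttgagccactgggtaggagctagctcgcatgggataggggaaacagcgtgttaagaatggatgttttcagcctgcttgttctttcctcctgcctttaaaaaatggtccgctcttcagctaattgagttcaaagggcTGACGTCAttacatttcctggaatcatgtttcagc
Bdnf: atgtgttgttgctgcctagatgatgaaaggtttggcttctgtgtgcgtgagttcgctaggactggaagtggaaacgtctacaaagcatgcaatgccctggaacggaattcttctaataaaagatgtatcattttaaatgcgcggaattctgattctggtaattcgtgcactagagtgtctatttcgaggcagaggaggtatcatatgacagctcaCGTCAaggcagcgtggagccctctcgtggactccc
Vgf: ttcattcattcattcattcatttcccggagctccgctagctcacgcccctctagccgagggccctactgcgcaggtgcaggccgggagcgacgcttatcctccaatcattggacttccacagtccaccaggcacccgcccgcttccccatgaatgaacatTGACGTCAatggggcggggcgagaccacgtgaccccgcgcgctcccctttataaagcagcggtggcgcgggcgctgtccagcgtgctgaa

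In the Nr4a1 window the core starts 246, 226, 82 and 53 bases before the annotated start, each time on the opposite strand. In the Bdnf window it starts 35 bases before the start, and the full CRE starts 90 bases before the start of Vgf and 35 before that of Crem. Fosl2, a risen gene, and Grm7 and Grip2, both lower in NMDA, had no match to any of the 3 motifs. Camkk1, also lower, had 1 core. Junb, called higher without replicate 3, had 1 core, 155 bases before its start.

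Among the activity-regulated effectors, Bdnf and Vgf rose. The list had 6 tested genes, of which 2 were called higher in either fit, with a median log2 change of 0.80 with all arrays and 0.76 without replicate 3. Bdnf encodes a neurotrophin that supports survival and synaptic strength. Its probe set D10938exon_s_at had an intensity of 4084, 1608 and 7695 on NMDA360 arrays 2, 3 and 4, against 667, 352 and 458 on the control arrays. The groups did not overlap, and each culture number rose. Bdnf rose by 2.75 on the log2 scale (SE 0.48, adjusted p = 0.00566) and by 3.04 without replicate 3 (adjusted p = 0.00381). Without the block its adjusted p was 0.0914, with 0.000510 as the lowest of 20 alternatives. Of 7 Bdnf probe sets 3 passed, the others being rc_AI030286_s_at at 2.77 (adjusted p = 0.00969) and X67108_at at 2.36 (adjusted p = 0.0281), and the 7 ran between 0.30 and 2.77.

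Vgf, which encodes a secreted peptide precursor induced by neurotrophins, had an intensity of 14732, 6549 and 15517 on NMDA360 arrays 2, 3 and 4, against 4901, 3934 and 3894 on the control arrays. Every treated value was above every control value. Vgf rose by 1.42 on the log2 scale (SE 0.26, adjusted p = 0.00858) and by 1.74 without replicate 3 (adjusted p = 0.00103). Without the block its adjusted p was 0.0974, with 0.000510 as the lowest of 20 alternatives. Plat, which encodes tissue plasminogen activator, had 800, 810 and 619 on NMDA360 arrays, against 215, 392 and 368 on control arrays. Those groups did not overlap either, but the change of 1.03 did not pass (adjusted p = 0.174, and 0.299 without replicate 3). Nptx2, which encodes a secreted protein that gathers AMPA receptors, had a change of 0.57 (adjusted p = 0.350) and Ptgs2, which encodes the inducible prostaglandin synthase, 0.49 (adjusted p = 0.505). Without replicate 3 Nptx2 had 0.53 (adjusted p = 0.590) and Ptgs2 0.13 (adjusted p = 0.972). Probe sets of Igf1 disagreed, with 0.15 at the brightest, X06107_r_at, and 1.92 (adjusted p = 0.140) at M15481_g_at, which was singled out after its value was seen. Without replicate 3 these were 0.044 and 2.35, the higher with adjusted p = 0.0679, and 0.0456 without the block.

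Vgf was the only one of 10 tested neuropeptide and granin genes to pass, and the median of the list was 0.24 with all arrays and 0.21 without replicate 3. Penk, which encodes the enkephalin precursor, had an intensity of 3352, 1566 and 2202 on NMDA360 arrays 2, 3 and 4, against 1783, 933 and 1190 on the control arrays. It was higher in NMDA in each culture number, by 0.81 (SE 0.21, adjusted p = 0.0878), and the groups overlapped, the control of culture 2 lying above the NMDA360 value of culture 3. Without the block its adjusted p was 0.706. Sst, the somatostatin gene, had 0.81 (adjusted p = 0.174), Npy 0.11 (adjusted p = 0.846) and Tac1 0.01 (adjusted p = 0.988). Without replicate 3 Penk had 0.77 (adjusted p = 0.144), Sst 0.96 (adjusted p = 0.154), Npy 0.31 (adjusted p = 0.772) and Tac1 -0.034 (adjusted p = 0.993). The other tested members ran between -0.46 for Cck, the cholecystokinin gene, and 0.57 for Oxt, the oxytocin gene, and between -0.41 for Pdyn, the prodynorphin gene, and 0.32 for Cck without replicate 3.

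**Figure D3:**
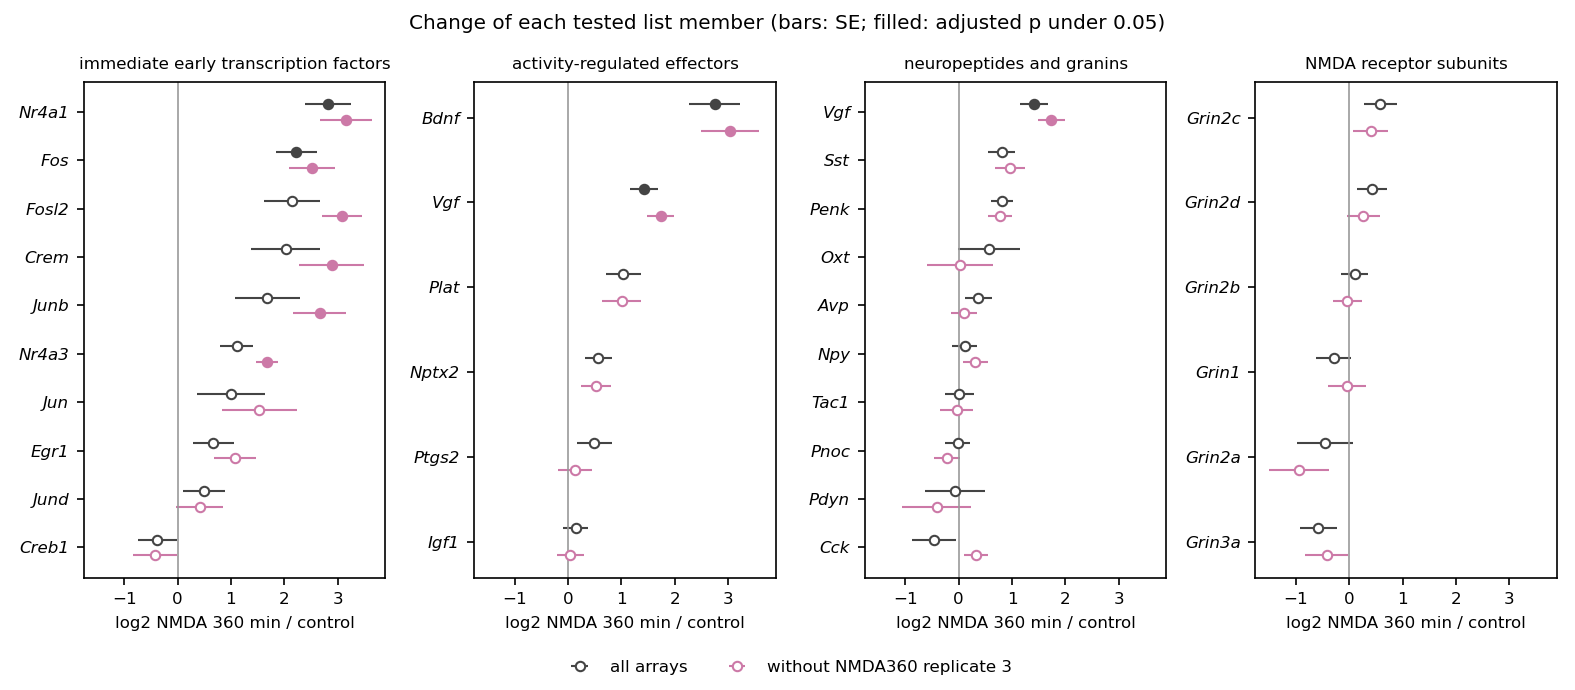
Log2 change between NMDA 360 min and control for the tested members of 4 gene lists, each gene at its brightest probe set (X06769cds_g_at for Fos), with bars of 1 SE and filled symbols for an adjusted p under 0.05. Grey symbols use all arrays and pink symbols leave out NMDA360 replicate 3. Fos, Nr4a1, Bdnf and Vgf are filled in both, and no NMDA receptor subunit is.

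Of the glutamate receptor genes, Grm7 alone changed past the threshold, at 1 of its 2 tested probe sets. Grm7 encodes a presynaptic metabotropic receptor that curbs transmitter release. At D16817_g_at it had an intensity of 212, 293 and 142 on NMDA360 arrays 2, 3 and 4, against 1279, 556 and 1562 on the control arrays. All treated values lay below all control values. The NMDA360 mean of 216 was under the run mean of a probe set that the intensity filter dropped (Ccl2, 356). D16817_g_at was therefore tested through its higher values in other groups, and its fall is read at low intensity. Its log2 change was -1.93 (SE 0.42, adjusted p = 0.0281) and -2.46 without replicate 3 (adjusted p = 0.00219), while without the block the adjusted p was 0.228 with all arrays and 0.173 without replicate 3. Over 20 alternatives with all arrays its adjusted p ran between 0.000912 and 0.311. The other probe set, D16817_at, was at -0.78 (adjusted p = 0.288), with 729, 1369 and 906 on NMDA360 arrays and 1702, 1303 and 2293 on control arrays, which overlap through culture 3.

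None of the 6 NMDA receptor subunit genes passed in either fit, with a list median of -0.09 with all arrays and -0.04 without replicate 3. Grin1, the obligatory subunit, had a log2 change of -0.29 (adjusted p = 0.706), Grin2a -0.45 (adjusted p = 0.724), Grin2b 0.10 (adjusted p = 0.867), Grin2c 0.59 (adjusted p = 0.416), Grin2d 0.43 (adjusted p = 0.495) and Grin3a -0.58 (adjusted p = 0.468). Without replicate 3 they had -0.043, -0.95, -0.037, 0.40, 0.27 and -0.42 in that order, with adjusted p-values between 0.633 and 0.990. None of the 7 tested AMPA and kainate receptor genes passed either. All 7 had a log2 change below 0 with all arrays, with a median of -0.43, and 6 of 7 without replicate 3, with a median of -0.27. Grip2, which encodes a scaffold that holds AMPA receptors, fell without replicate 3 at AF090113_g_at (log2 change -0.83, adjusted p = 0.0391, and 0.126 without the block). That probe set had 2250, 3375 and 2365 on NMDA360 arrays 2, 3 and 4, against 4662, 3410 and 4243 on the control arrays, and its culture 3 difference was -0.01. With all arrays it was at -0.62 (adjusted p = 0.208). The other Grip2 probe set, AF090113_at, was at -1.10 with all arrays (adjusted p = 0.119) and at -0.69 without replicate 3 (adjusted p = 0.322).

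Camkk1, which encodes a calcium-regulated kinase that activates CaM kinases, was the only one of 18 tested calcium-regulated kinase and phosphatase genes to pass, and only without replicate 3. It had an intensity of 1884, 2315 and 1322 on NMDA360 arrays 2, 3 and 4, against 3534, 2706 and 2504 on the control arrays. The groups did not overlap. Camkk1 was at -0.84 on the log2 scale in that fit (SE 0.19, adjusted p = 0.0243, and 0.208 without the block) and -0.66 with all arrays (adjusted p = 0.142). The median of its list was -0.14 with all arrays and -0.20 without replicate 3.

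The channel, cell death, stress and metabolism lists held no called gene. None passed among 15 GABA and glycine receptor genes, 16 sodium and calcium channel genes, 20 potassium channel genes, 15 vesicle release genes, 14 cell death genes, 10 stress response genes, 8 cytokine, prostaglandin and nitric oxide genes, 8 energy metabolism genes and 9 cytoskeleton genes. Their medians with all arrays ran between -0.15 and 0.32. At the brightest probe set of each gene, the extremes with all arrays were 1.55 for Kcnj4, an inward rectifier potassium channel gene (adjusted p = 0.135), and -1.01 for Cacnb2, a calcium channel subunit gene (adjusted p = 0.436). Without replicate 3 these had 1.30 (adjusted p = 0.322) and -1.03 (adjusted p = 0.668). Other probe sets reached -1.16 for Casp2, which encodes a caspase, and -1.02 for Cacna1a, a calcium channel gene, and neither passed. Of the probe sets next in line to fall with all arrays, Apex1, a DNA repair gene, had -0.63 (adjusted p = 0.140), Pja2, a ubiquitin ligase gene, -0.65 (adjusted p = 0.142), Kcnd3, a potassium channel gene, -1.01 (adjusted p = 0.170), Asic2, an acid-sensing channel gene, -0.68 (adjusted p = 0.170) and Cacna1b, the N-type calcium channel gene, -0.58 (adjusted p = 0.194). Dlgap4 had -1.17 (adjusted p = 0.149) and Slc1a1 -0.57 (adjusted p = 0.170). Without replicate 3 the next in line included Slc32a1, the vesicular GABA transporter gene, at -1.32 (adjusted p = 0.149), Scarb1, a lipoprotein receptor gene, at -0.62 (adjusted p = 0.149) and Cacna1a at -1.49 (adjusted p = 0.243). Plec, which encodes a cytoskeletal linker, had -0.97 there (adjusted p = 0.166), Pcp4 -0.60 (adjusted p = 0.223) and Tubg1 -0.60 (adjusted p = 0.259). Of 18 tested neurotrophic factor and receptor genes Bdnf alone passed. Over all 884 probe sets, 37 had every NMDA360 array above every control array (4.19%) and 62 had every one below (7.01%), and without replicate 3 these were 77 (8.71%) and 129 (14.6%).

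The cultures carried neuron and glia transcripts, and the markers of neither passed the threshold. The 11 neuron markers ranked between percentiles 27.9 (Camk2a, below the intensity filter) and 98.9 (Gap43) of mean intensity, with Eno2 at 97.4 and Map2 at 94.1. The 5 astrocyte markers ranked between percentiles 43.4 (Slc1a2) and 95.7 (Glul). The intensities of 11 neuron markers summed to 96440 to 123007 on NMDA360 arrays, against 103352 to 126196 on control arrays. Those of 5 astrocyte markers summed to 18760 to 39494 on NMDA360 arrays and 22316 to 36398 on control arrays, and those of 6 oligodendrocyte markers to 8966 to 10316 on NMDA360 arrays and 6657 to 11264 on control arrays. Of the microglia markers Itgam alone was on the array, below the intensity filter, with 167, 1114 and 274 on NMDA360 arrays and 281, 632 and 237 on control arrays. No endothelial, meningeal or proliferation marker was on the array. In these bulk samples fewer cells of a type and less RNA per cell cannot be told apart.

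Culture 3 also stood apart from cultures 2 and 4 in 3 genes of inhibitory interneurons, which were chosen after their values were seen. Across the 6 groups Npy ran between 1520 and 2604 in culture 3, against 4850 to 14968 in the others. Sst ran between 1402 and 4201 in culture 3, against 7000 to 22785 in the others, and Gad1, which encodes a GABA-synthesizing enzyme, between 846 and 1417 in culture 3, against 2921 to 6924 in the others. In these 3 genes no value of culture 3 reached those of the other 2 numbers. Slc32a1, which inhibitory neurons also use, did not follow, with 2035 in culture 3 against 313 and 590 in cultures 2 and 4 at 360 min, and 1019 against 1080 and 964 in control. Pnoc, a neuropeptide gene, was highest in culture 3 at 360 min, with 5289 against 3098 and 2715. The separation of culture 3 was not confined to interneuron genes. Hmox1, a stress response gene, ran between 1806 and 3709 in culture 3 across the groups, against 4731 to 13690 in the others. The astrocyte marker sums ran between 18760 and 27286 in culture 3, against 30142.5 to 39494 in the others. Neuron and oligodendrocyte marker sums overlapped between culture 3 and the others. The low Npy, Sst and Gad1 levels were present in the control of culture 3 as well, and their part in the size of its NMDA differences was not tested.

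The run's shorter exposures showed when the change at 360 min appeared. Fos at X06769cds_at averaged 563 in control, 1341 at 10 min, 3916 at 30 min, 6129 at 60 min, 9898 at 180 min and 7873 at 360 min. Nr4a1 at U17254_g_at averaged 1352 in control and 1601, 3943, 13688, 17384 and 11897 at the same times. In both the highest mean of the run was at 180 min with all arrays. Without NMDA360 replicate 3 the 360 min mean was 10863 for Fos and 16015 for Nr4a1, while the 180 min means still hold culture 3. In cultures 2 and 4 both genes were higher at 180 than at 360 min. The limma difference of 360 from 180 min was -0.27 for Fos with all arrays and 0.23 without replicate 3. For Nr4a1 it was -0.43 and -0.10, and none of these passed (adjusted p between 0.644 and 0.981). Vgf averaged 4243 in control and 4781, 4095, 5205, 7269 and 12266 at 10, 30, 60, 180 and 360 min, and the 360 min mean was the highest of its 6.

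The difference between 360 min and each shorter time was tested in the same fit, which pools the spread of all groups and takes no control mean into these differences. Against 10 min, 38 of 884 probe sets passed (4.3%), 22 higher (2.49%) and 16 lower (1.81%) at 360 min, and among them were Fos, Nr4a1, Bdnf, Vgf and Fosl2, with 34 (3.85%) without replicate 3. Fosl2 differed by 2.96 (SE 0.53, adjusted p = 0.0123) and Nr4a1 by 2.57 (adjusted p = 0.0123). The glutamate transporter gene Slc1a1 was lower at 360 min by -0.92 (adjusted p = 0.0123). Replicates 2 and 3 of the 10 min group had GAPDH ratios of 2.41 and 2.27, and their part in these differences was not tested.

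Against 30 min, 7 probe sets passed (0.792%), 6 of them higher at 360 min (0.679%), and 11 passed without replicate 3 (1.24%), 8 of them higher (0.905%). Bdnf at D10938exon_s_at was 2.39 higher at 360 min than at 30 min (adjusted p = 0.0348), Vgf 1.50 higher (adjusted p = 0.0129) and Fosl2 3.13 higher (adjusted p = 0.0129). Grm7 was lower by -1.88 (adjusted p = 0.0493), with 212, 293 and 142 at 360 min against 1116, 594 and 1497 at 30 min. At 10 min the same probe set had 314, 196 and 1318, and the difference of 360 min from 10 min was -0.87 (adjusted p = 0.243). Fos and Nr4a1 were not among the 7, at 0.69 (adjusted p = 0.558) and 1.38 (adjusted p = 0.147).

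Against 60 min limma called 0 probe sets with all arrays, with 91 at an unadjusted p under 0.05, and 4 without replicate 3 (0.452%). Those 4 were Fosl2 at 2.46 (adjusted p = 0.00400), Nr4a3 at 1.39 (adjusted p = 0.00400), Vgf at 1.46 (adjusted p = 0.00854) and Grm7 at -2.46 (adjusted p = 0.00656). Fos differed by 0.10 between 360 and 60 min with all arrays (adjusted p = 0.944) and by 0.60 without replicate 3 (adjusted p = 0.995). Egr1 was lower at 360 than at 60 min in each culture, with 19370, 6618 and 21282 against 49738, 33651 and 47537. Its log2 difference was -1.61 with all arrays (adjusted p = 0.0829) and -1.21 without replicate 3 (adjusted p = 0.312). Against 180 min limma called 0 probe sets in either fit, with 130 at an unadjusted p under 0.05 with all arrays and 44 without replicate 3. Without the block 0 passed at 10, 30, 60 or 180 min, with 111, 62, 44 and 52 at an unadjusted p under 0.05.

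**Figure D4:**
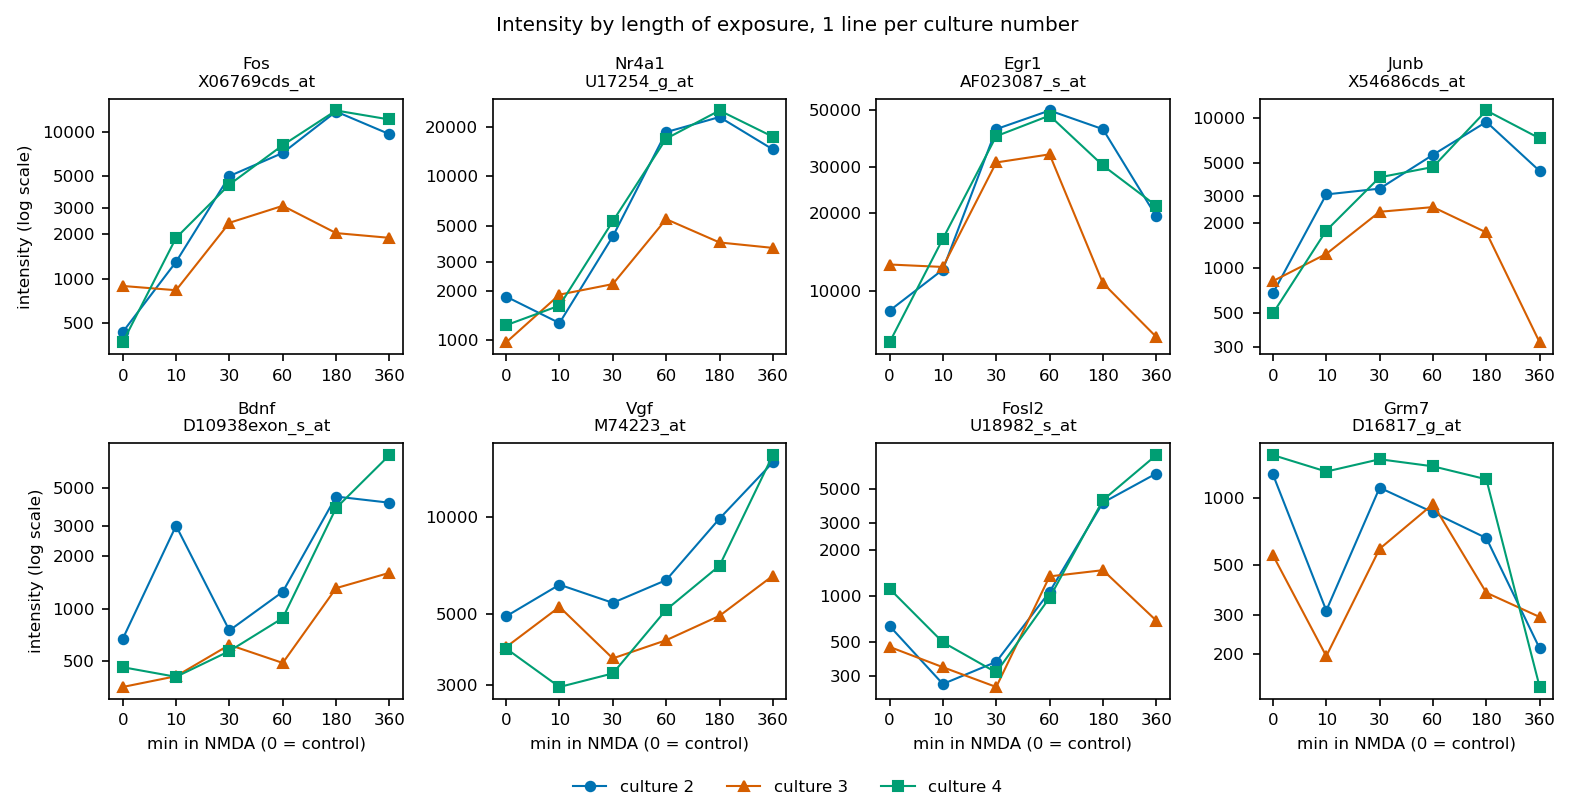
Intensity (log scale) of 8 probe sets by min in NMDA (0 is control, times evenly spaced), with 1 line per culture number. Fos and Nr4a1 are highest at 60 or 180 min in each culture, Egr1 at 60 min, and Vgf at 360 min.

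A separate run of the series allows the same genes to be read 24 h after a washed-off pulse of 1 mM NMDA, on other arrays with their own controls. The block of its fit was the culture label in the array titles. The run had 4 arrays each for pulses of 10, 30 and 60 min and for control, and 26, 20 and 23 of 884 probe sets passed (2.94%, 2.26% and 2.6%), or 8 for the 30 min pulse without 1 array whose labels conflict. Replicate 3 of the 10 min pulse differed from the others of its group. Sst was 671 on it against 26563 to 69804, Gad1 472 against 6998 to 9070, and Pja2 72477 against 20990 to 21187. Its part in the pulse values was not tested. Another run holds arrays with some of the same pulse and culture labels, and these were not used. The continuous and pulse values stand side by side and no test was made between them. Of the 10 immediate early factor genes tested in the pulse run, 6 rose after the 10 min pulse, 5 after 30 min and 6 after 60 min. Fos, Junb, Nr4a1, Nr4a3 and Crem were among them each time. These 10 are not the same set as in the continuous run, since Jund was not tested in the pulse run. Fos at X06769cds_at was at 2.68, 2.41 and 2.33 after the 3 pulses, beside 3.33 after 360 min in NMDA.

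Bdnf at D10938exon_s_at was at 3.12, 2.68 and 2.90 after the 10, 30 and 60 min pulses, beside 2.75 after 360 min in NMDA. Nptx2 and Penk passed after each pulse and did not pass after 360 min. Nptx2 was at 2.29, 1.86 and 2.00 (adjusted p = 0.00293, 0.0181 and 0.00957), beside 0.57, and Penk at 1.86, 1.74 and 1.83 (adjusted p = 0.00418, 0.00976 and 0.00545), beside 0.81. In the pulse run Penk had 3712, 7758, 6798 and 2486 after 10 min, against 921, 1656, 1321 and 1191 in control, with no overlap. Grm7 at D16817_g_at was at -0.10, -0.53 and -0.20 after the pulses and did not pass (adjusted p = 0.947, 0.923 and 0.900), beside -1.93 after 360 min. None of the 6 NMDA receptor subunit genes passed after any pulse.

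**Figure D5:**
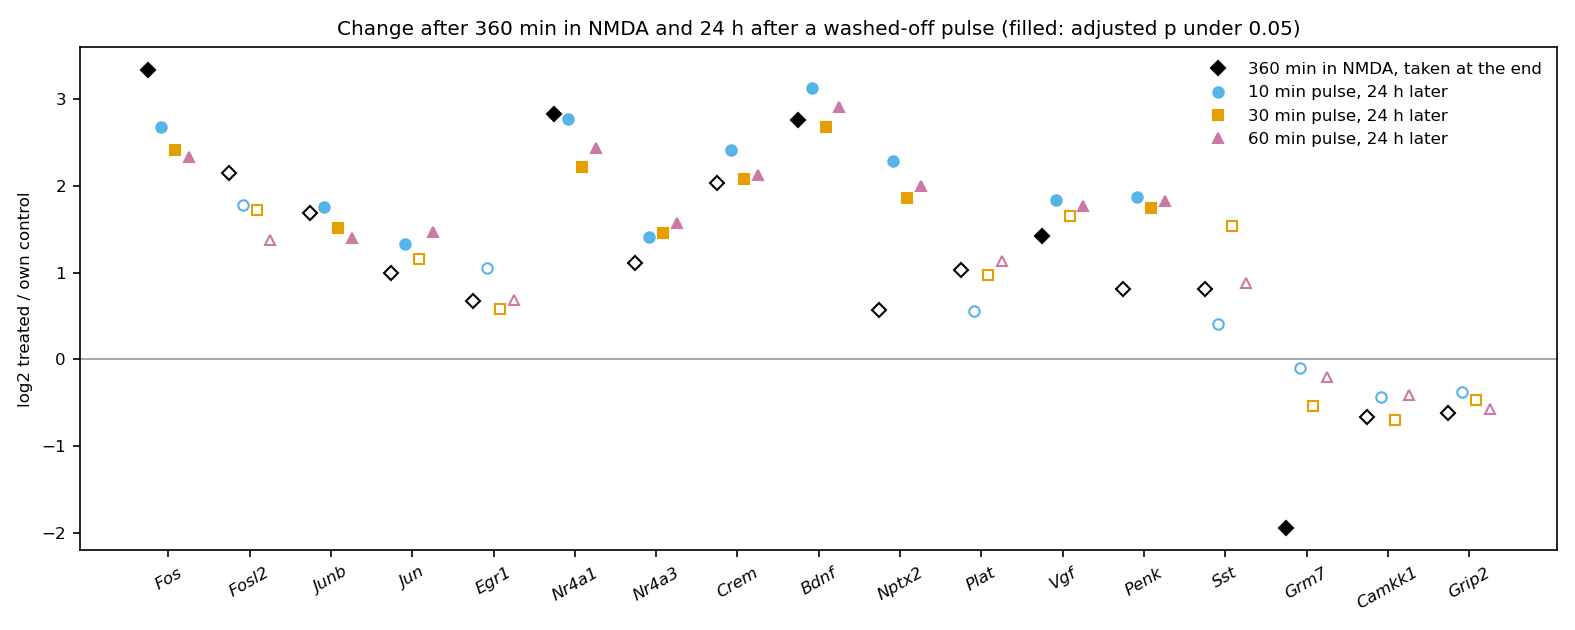
Log2 change of 17 genes after 360 min in NMDA (black diamonds) and 24 h after pulses of 10, 30 and 60 min (circles, squares and triangles), each against its own controls. Filled symbols have an adjusted p under 0.05, and Fos is read at X06769cds_at. Fos, Nr4a1 and Bdnf are filled in all 4 conditions, and Grm7 is filled at 360 min alone.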

How the data were processed

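Of the 112 arrays, the 18 of 1 run (6 groups of 3) and the 16 of a pulse run (4 groups of 4) were used. The authors deposited 1 linear intensity per probe set and array, with no log taken. The software that made these intensities and its settings are not given in the sources used here. The arrays' means without the top and bottom 2% lay between 2510 and 2513, so the deposited values carry a common scaling. Of 1322 probe sets, 59 controls were left out. The platform annotation gave 1137 of the other 1263 a single gene, 8 several and 118 none.

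An offset of 86.0 (82.3 without NMDA360 replicate 3), the 10th percentile of the positive values, was added before log2, so changes of low probe sets are understated. Probe sets with a run mean under the 30th percentile were dropped, which left 884. limma 3.58.1 in R 4.3.3 fitted group means with the culture number as a block, an intensity trend and Benjamini-Hochberg adjustment over all 884. The test was checked on simulated data, in which a probe set had the same independent spread on every array. That check therefore holds no array that stands apart as NMDA360 replicate 3 does. The block was made the main fit, because the comparison is defined as paired, with earlier results of these data known, as were the members and gene lists. Deviations from group means correlated at 0.451, 0.409 and 0.122 between NMDA360 and control arrays of 1 number. Over the 6 groups same-number pairs ran between 0.122 and 0.563, and other-number pairs between -0.524 and 0.304. An exact permutation test of 3 against 3 arrays cannot go below p = 0.10.

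Genes were named from a rule that takes up to 10 called probe sets per direction and fit, by size of change, filled up by smallest p, all tested members of 4 lists (immediate early factors, effectors, neuropeptides, NMDA receptor subunits), and the called or most changed member of each other list. Of those that did not pass, some are given only as part of a range, in the plot of the lists or in the closing section. Each gene stands for its brightest probe set in list counts. That choice, and naming a single most changed member, were settled after values under the alternatives had been seen. Alternatives changed the block, offset, filter, normalization, variance model, array weights, arrays fitted and GAPDH covariate.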

Additional observations from a re-analysis of the deposited data

Results flagged for a closer look

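These results differed between 360 min and a shorter exposure by limma's test of the difference itself, on the log2 scale and with all arrays. Against 10 min, Fos was higher at 360 min by 2.18, 2.42 and 1.73 at its 3 probe sets, Nr4a1 by 2.57 and 2.30, and Bdnf by 2.36, 2.07 and 1.89 at rc_AI030286_s_at, D10938exon_s_at and X67108_at. Vgf was higher by 1.31 and Fosl2 by 2.96. Camkk1 was lower at 360 min than at 10 min (-0.74), as were Slc1a1, a neuronal glutamate transporter gene (-0.92), Pcp4, which encodes a calmodulin-binding protein (-0.74), Tubg1, which encodes gamma-tubulin (-0.93), and Dlgap4, which encodes a postsynaptic scaffold (-1.34). Dlgap4 alone of these did not pass without NMDA360 replicate 3, at -0.72 (adjusted p = 0.113).

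Against 30 min, Bdnf was higher at 360 min by 2.45 and 2.39, Vgf by 1.50, Fosl2 by 3.13 and Sst by 1.17, and Grm7 was lower (-1.88). None of these differences passed without the replicate block.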

How the results depend on the processing

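The count of 10 called probe sets kept within 1.5 times under both offsets, both filters, quantile normalization, median centring, both variance models and the GAPDH covariate (8 to 11). It was 0 without the replicate block, 16 with array weights, 3 with only the NMDA360 and control arrays and 20 without culture 3 in every group. Leaving out the 10 min group, an alternative added after seeing the data, gave 10. Leaving out 1 array at a time gave 0 (without control replicate 4) to 18 (without NMDA360 replicate 3). The count of 18 without NMDA360 replicate 3 became 5 (without NMDA360 replicate 4 too, the lone array being assumed to vary like the other groups) to 20. The 38, 7 and 0 calls of 360 min against 10, 30 and 60 min were 0, 0 and 0 without the replicate block, 15, 2 and 1 with quantile normalization and 34, 11 and 4 without NMDA360 replicate 3. Without the block the 20 and 23 calls of the 30 and 60 min pulses were 12 and 14, and the 20 were 8 without 1 array of conflicting labels. The cause of these moves was not tested. Median centring shifted the median log2 change of all probe sets by -0.12.

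No called probe set changed sign under any alternative run. The sign turned in 65 values of 18 named probe sets, none of them called, and their log2 changes follow. With quantile normalization Npy was at -0.097 and Pnoc at 0.084. With median centring Tac1 was at -0.11, Npy at -0.0073 and Grin2b at -0.018. With array weights Cck was at 0.15. Without culture 3 in every group Cck was at 0.30, Grin1 at 0.0039, Grin2b at -0.22, Slc2a4 at -0.40 and Mag at -0.12. With the GAPDH covariate Creb1 was at 0.016, Pdyn at 0.38, Tac1 at -0.071, Pnoc at 0.081, Map1b at 0.42 and Slc1a2 at -0.0069. Leaving out 1 array at a time gave Cck -0.86 to 0.32, Grin2b -0.15 to 0.26, Mag -0.025 to 0.43, Npy -0.043 to 0.31, Pdyn -0.47 to 0.30, Plec -0.97 to 0.039, Pnoc -0.21 to 0.16, Slc2a4 -0.094 to 1.73, Slc32a1 -1.32 to 0.29 and Tac1 -0.30 to 0.36. The remaining values are from the fit without NMDA360 replicate 3. Without the replicate block Ptgs2 was at -0.029, Igf1 at -0.16, Avp at -0.059, Oxt at -0.16 and Grin1 at 0.046. With the offset at the 25th percentile Oxt was at -0.023. With quantile normalization Tac1 was at 0.045 and Grin1 at 0.036. With only the NMDA360 and control arrays Tac1 was at 0.030 and Grin1 at 0.0037. Leaving out 1 further array at a time gave Avp -0.0085 to 0.29, Creb1 -1.002 to 0.16, Grin1 -0.63 to 0.55, Grin2b -0.22 to 0.13, Igf1 -0.10 to 0.11, Mag -0.28 to 0.23, Map1b -1.22 to 0.30, Oxt -0.94 to 0.99, Slc2a4 -1.33 to 1.14 and Tac1 -0.70 to 0.63.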

Other observations

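The called probe set without a gene name in the platform annotation, AF030088UTR#1_at, had a log2 change of 2.17 without NMDA360 replicate 3 (adjusted p = 0.00914).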
